A study of Mus musculus with 4 samples.

Results

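The genes examined were the 10 NF-kB subunits and inhibitors Rela, Relb, Rel, Nfkb1, Nfkb2, Nfkbia, Nfkbib, Nfkbie, Tnfaip3 and Bcl3, taken by their symbols from a table of 35798 named genes. All 10 had enough counts to be tested, as had 13822 genes of the table in all. NF-kB is a family of dimeric transcription factors that inhibitor proteins of the IkB family hold in the cytoplasm until IkB kinases mark those inhibitors for destruction. In the alternative arm of the pathway, which some TNF receptor family members switch on, the p100 precursor is instead trimmed to p52, which pairs with RelB. Several genes of the pathway, among them those for IkB alpha, p100, RelB and A20, are themselves NF-kB targets, and in natural killer (NK) cells the pathway acts downstream of cytokine and activating receptors. TNFR2, encoded by Tnfrsf1b, is a receptor for TNF that recruits TRAF2.

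RNA was sequenced from Ly49H+ NK cells, the subset whose receptor recognizes mouse cytomegalovirus (MCMV). NK cells of wild-type donors carrying the CD45.1 allele and of TNFR2 KO donors carrying CD45.2 were placed together in NSG hosts, which lack T, B and NK cells of their own but keep myeloid cells. All hosts were infected intraperitoneally with MCMV a day after the transfer, and Ly49H+ cells of each CD45 type were sorted from spleen on D3.5 of infection. There were 2 libraries per genotype, each made from the pooled spleens of 3 mice, and same-numbered wild-type and TNFR2 KO libraries came from the same pool. The labels give no age, and the paper states only a range of weeks that covers all mice of its experiments. Genotype, the CD45 allele and the gate used for sorting cannot be told apart. The p values measure only the spread between duplicate libraries. Beyond counting noise this spread was small, with a biological coefficient of variation of 3.327%. The paper describes an experiment in duplicate on a pooled spleen sample from 3 mice. Whether the duplicates of a genotype came from separate pools is therefore not settled. Permuting 2 libraries against 2 exactly allows no two-sided p below 0.333 for any one gene, so tests come from a model fitted across all genes.

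Libraries held 32713256 to 39543650 estimated counts. Levels are given as CPM, the count relative to library size after TMM scaling, which sets libraries to a common level from the bulk of genes. Tnfrsf1b, the gene targeted in the KO, stood at 264.7 and 268.6 CPM in wild-type libraries and at 55.1 and 58.6 CPM in the KO libraries, so transcripts counted to it were lower in both KO libraries but not at 0, and the deleted part of the gene is not stated by the labels. A list of 27 NK cell genes was detected throughout, with Gzma, a granzyme, at a mean of 5805 CPM in wild-type libraries and of 12263 CPM in the KO libraries. All 27 passed the test as higher in TNFR2 KO libraries, where 24.2% of all genes tested did. Their median log2-fold change was 0.84, and their summed level was 17810 to 17930 CPM in wild-type against 32190 to 32480 CPM in TNFR2 KO libraries. Gzmb, another granzyme, was at a mean of 3876 CPM in wild-type and of 6540 CPM in TNFR2 KO libraries. Gzma and Gzmb made up most of the sum in both genotypes, so scaling on the summed list rests mainly on these genes. In bulk samples, fewer cells of a type and less RNA per cell cannot be told apart. When libraries were instead scaled on that NK list, the median over all genes moved to -0.86 on the log2 scale. The changes of the members relative to that median stayed within 0.01 of those under TMM for every scaling tried. A scaling shifts all genes alike, so this was fixed in advance and is no test of the members.

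To ask whether transcripts of NF-kB itself differed in NK cells without TNFR2, each member was compared between the genotypes. Nfkb2, Relb, Nfkbie and Nfkbia were lower in TNFR2 KO libraries under every alternative run, at 0.667, 0.704, 0.724 and 0.801 times the wild-type level. Rel and Nfkbib were also lower, at 0.907 and 0.898 times, by calls that some alternatives lost. Rela and Tnfaip3 were higher at 1.13 and 1.08 times, a direction that held under TMM and turned under scaling on the NK list, while Nfkb1 and Bcl3 did not pass the test.

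In all, 6 of the 10 members were lower and 2 were higher at an adjusted p value below 0.05 (quasi-likelihood test in edgeR, Benjamini-Hochberg adjusted over 13822 genes). In the same test 50.4% of all genes were called, 26.2% lower and 24.2% higher. The lower calls made up 52.0% of all calls, a split that became 64.5% with library size alone and 99.0% with scaling on the NK list. The libraries of the genotypes did not overlap for 8 members, 6 lower and 2 higher, where the same held for 74.0% of all genes, 37.7% lower and 36.4% higher. No member had an absolute log2-fold change over 1 in either edgeR under TMM or DESeq2, whatever its p value, whereas 5 did in edgeR with scaling on the NK list. Under TMM 13.3% of all genes passed both that limit and the adjusted p value threshold, 11.8% lower and 1.56% higher. The median log2-fold change was -0.15 over the members and -0.003 over all genes tested. Marker genes of other cell types also differed between the genotypes, with values given beside the target genes, and their part in the members' changes was not tested.

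**Figure D1:**
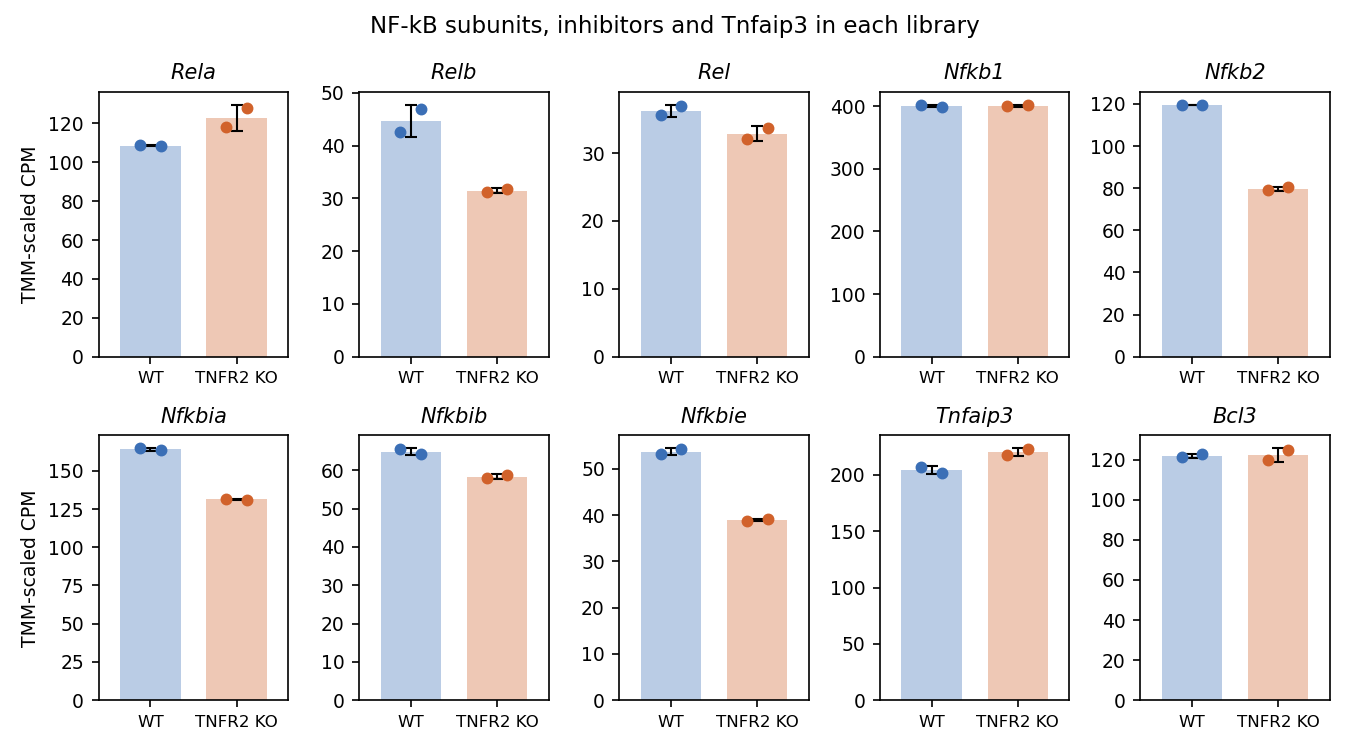
TMM-scaled CPM (y axes, each from 0) of the 10 members in wild-type (blue) and TNFR2 KO (orange) libraries, with 1 point per library, bars at the mean and whiskers of 1 SD (n = 2). The points of the genotypes stand apart for 8 members and overlap for Nfkb1, near 400.8 CPM in wild-type, and for Bcl3, near 122.0 CPM.

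Promoters were compared because 6 members were lower together. RefSeq promoters on GRCm38.p6, running from 250 bases before to 50 bases after each transcription start, were found for 8 of the 10 members, all but Relb and Nfkb1, and they made up 11 promoters. The kB consensus, a motif of 10 letters that opens with GGG and closes with CC on either strand, was present in a promoter of 6 of these 8 genes, against 9.55% of 27025 genes and 8.46% of 32851 promoters in the table. Other pathway genes, in the lists by role given below, held the motif as well. Of those with a promoter, it was present in 33.3% of target genes and 33.3% of ubiquitin editing genes. The share was 31.2% for adaptors and ligases, 18.2% for kinases and 12.5% for other IkB and nuclear regulators. A match describes the letters only and is not a binding site. The stretches printed here are the parts of each promoter around the match, 5′ to 3′ on the strand of the gene, with the matched letters in capitals, and they are shown because the matches occur both in members that were lower and in members that were not.
Rel, chr11:23771026-23771086, minus strand: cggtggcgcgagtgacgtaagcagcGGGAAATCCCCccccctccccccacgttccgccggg
Nfkb2, chr19:46304689-46304717, plus strand: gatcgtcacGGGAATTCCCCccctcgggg
Nfkb2, chr19:46304717-46304736, plus strand: gggccgaaaGGGGCTTTCCc
Nfkb2, later start, chr19:46305696-46305723, plus strand: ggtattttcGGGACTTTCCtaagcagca
Nfkbia, chr12:55492648-55492701, minus strand: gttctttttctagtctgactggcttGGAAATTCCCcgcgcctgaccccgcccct
Nfkbie, chr17:45555569-45555628, plus strand: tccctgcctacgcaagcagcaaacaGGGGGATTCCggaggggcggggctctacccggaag
Tnfaip3, chr10:19015517-19015544, minus strand: actcacgcgGGGACACCCCggggcggga
Tnfaip3, chr10:19015411-19015447, minus strand: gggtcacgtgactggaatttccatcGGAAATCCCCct
Bcl3, chr7:19822744-19822753, minus strand: GGGAAGTCCC
Of the 6 genes with a match, Nfkb2, Nfkbia and Nfkbie were lower in TNFR2 KO libraries under every alternative. Rel was lower by a call that some alternatives lost. Tnfaip3 was higher under TMM and lower under scaling on the NK list, and Bcl3 did not pass the test. Of all genes tested, 26.2% were lower and 24.2% higher. No match stood in the promoters of Rela and Nfkbib, which says only that these letters are not in those windows. Relative to the RefSeq start, the match ran from -92 to -82 in Rel, from -39 to -29 and from -11 to -2 at the first Nfkb2 start, from -29 to -20 in Nfkbia, from -106 to -97 in Nfkbie and from 3 to 12 in Bcl3. The matches of Rel, Nfkbia and Nfkbie lay outside the annotated genes, those printed for Nfkb2 and Bcl3 lay in annotated exons, and those of Tnfaip3 lay inside the annotated gene but outside its exons. Another Nfkb2 match, at chr19:46305459-46305468, is not printed. It ran from -236 to -227 relative to a further RefSeq start and lay inside the annotated gene but outside its exons. Counts of CG dinucleotides ran from 6 to 42 in the member promoters, where the median of all promoters was 7, and only the second promoter of Tnfaip3 was below that median.

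Among the 5 subunits, those of the alternative arm had the lowest log2-fold changes. Nfkb2 (chr19:46304320-46312385 on GRCm38, plus strand) encodes p100, the precursor of p52, and was at 119.6 and 119.4 CPM in wild-type and at 79.0 and 80.4 CPM in TNFR2 KO libraries. Both KO libraries were below both wild-type libraries by far more than the duplicates differed. The log2-fold change was -0.59 (SE 0.0340, 95% interval -0.66 to -0.51, adjusted p = 2.46e-08), the largest in size among the members, and it stayed between -0.59 and -0.56 when each library was left out in turn. Of the 31-base stretches of Nfkb2 transcripts, 16.3% are shared with other genes, mostly AC114539.1 on the opposite strand, so its counts are uncertain where counting did not use strand. AC114539.1 is not among the named genes, so its counts are not known. Psd, which also overlaps Nfkb2, had 14 and 7 counts in wild-type and 6 counts in each TNFR2 KO library, beside 2577 to 4537 counts for Nfkb2.

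Relb (chr7:19606217-19629438, minus strand) encodes RelB, the usual partner of p52. It was at 42.6 and 46.9 CPM in wild-type and at 31.2 and 31.8 CPM in TNFR2 KO libraries. The wild-type duplicates of Relb were farther apart than those of most members, with a mean of 44.7 ± 3.07 CPM (SD, n = 2), yet the lower of them was above both KO libraries. Its log2-fold change was -0.51 (SE 0.0578, 95% interval -0.63 to -0.38, adjusted p = 1.32e-05) and ran from -0.57 to -0.43 when each library was left out.

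Rel (chr11:23736847-23770970, minus strand) encodes c-Rel, a subunit of the classical arm that is prominent in lymphocytes. It was at 35.6 and 36.9 CPM in wild-type and at 32.1 and 33.6 CPM in TNFR2 KO libraries. The groups did not overlap, but the gap between them was of about the size of the gaps between duplicates. The log2-fold change of Rel was -0.14 (SE 0.0535, 95% interval -0.26 to -0.02, adjusted p = 0.0446 by edgeR). This call was lost without wild-type replicate 1 (adjusted p = 0.0720), without wild-type replicate 2 (0.230), without TNFR2 KO replicate 1 (0.286), with DESeq2 (0.219), with upper-quartile scaling (0.0609) and without a filter on low counts (0.0570).

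Rela (chr19:5637483-5648130, plus strand) encodes p65, the main activating subunit of the classical arm. It was at 108.8 and 108.3 CPM in wild-type and at 118.2 and 127.7 CPM in TNFR2 KO libraries. Both KO libraries were above both wild-type libraries, and they differed from each other by about as much as the lower one differed from wild-type. The log2-fold change of Rela was 0.18 (SE 0.0393, 95% interval 0.09 to 0.26, adjusted p = 0.00247) under TMM, and it turned to -0.68 with scaling on the NK list.

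Nfkb1 (chr3:135584655-135691547, minus strand) encodes p105, the precursor of p50, and was the member with the highest CPM. It was at 402.2 and 399.4 CPM in wild-type and at 400.1 and 402.0 CPM in TNFR2 KO libraries, and the genotypes overlapped. The log2-fold change of Nfkb1 was 0.001 with a 95% interval from -0.05 to 0.05 (adjusted p = 0.983 by edgeR), and its sign depended on the scaling and on the filter on low counts.

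**Figure D2:**
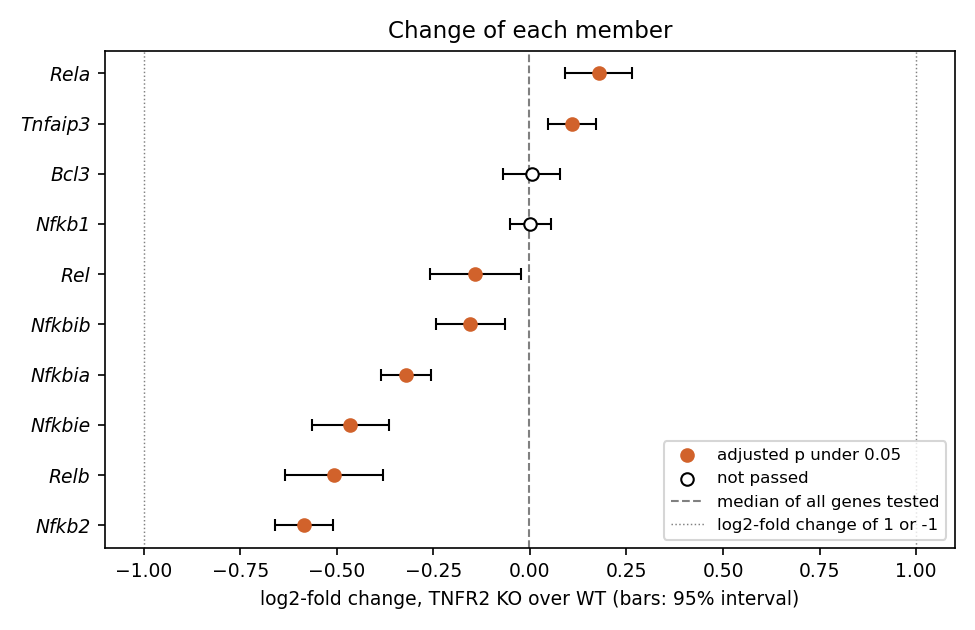
Log2-fold change of each member, TNFR2 KO over wild-type (x axis), with 95% intervals as bars, filled points where the adjusted p value was below 0.05 and open points for members that did not pass. Under TMM the members run from -0.59 for Nfkb2 to 0.18 for Rela, all inside the dotted lines at 1 and -1; with scaling on the NK list Rela and Tnfaip3 were lower.

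Of the 3 classical IkB genes, each was lower in TNFR2 KO libraries, where 26.2% of all genes tested were. The call of Nfkbib was lost under some alternatives. Nfkbia (chr12:55489410-55492647, minus strand) encodes IkB alpha, the inhibitor that is destroyed and made again within a cycle of NF-kB activation. It was at 164.6 and 163.4 CPM in wild-type and at 131.5 and 131.1 CPM in TNFR2 KO libraries. The duplicates lay close together and the genotypes were well apart, with a log2-fold change of -0.32 (SE 0.0295, 95% interval -0.39 to -0.26, adjusted p = 1.85e-06) that stayed between -0.32 and -0.31 when each library was left out.

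Nfkbie (chr17:45555703-45563169, plus strand) encodes IkB epsilon, which binds p65 and c-Rel dimers. It was at 53.2 and 54.3 CPM in wild-type and at 38.8 and 39.1 CPM in TNFR2 KO libraries. No library of one genotype reached the range of the other, and the log2-fold change of Nfkbie was -0.47 (SE 0.0459, 95% interval -0.57 to -0.36, adjusted p = 3.58e-06). Leaving out each library gave -0.47 to -0.44.

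Nfkbib (chr7:28758251-28767512, minus strand) encodes IkB beta. It was at 65.5 and 64.3 CPM in wild-type and at 57.9 and 58.8 CPM in TNFR2 KO libraries. The genotypes did not overlap, and the log2-fold change of Nfkbib was -0.15 (SE 0.0407, 95% interval -0.24 to -0.07, adjusted p = 0.00738 by edgeR). The call was lost without wild-type replicate 1 (adjusted p = 0.0613) and with DESeq2 (adjusted p = 0.0523). Of the 31-base stretches of Nfkbib, 14.0% are shared with other genes, mostly Ccer2 on the opposite strand, which had at most 1 count in any library, and Sirt2, which also overlaps Nfkbib, had 4160 to 5175 counts, so the counts of Nfkbib are uncertain where counting did not use strand.

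Bcl3 (chr7:19808462-19822770, minus strand) encodes a nuclear member of the IkB family that binds p50 and p52 dimers on DNA. It was at 121.3 and 122.8 CPM in wild-type and at 120.1 and 124.9 CPM in TNFR2 KO libraries. The TNFR2 KO values of Bcl3 enclosed the wild-type values, and its log2-fold change was 0.004 with a 95% interval from -0.07 to 0.08 (adjusted p = 0.928).

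Tnfaip3 (chr10:19000910-19015657, minus strand) encodes A20, an enzyme that edits ubiquitin chains on signalling proteins and so limits IkB kinase activation. It was at 206.6 and 201.6 CPM in wild-type and at 217.6 and 222.7 CPM in TNFR2 KO libraries. The genotypes did not overlap, and the gap between them was wider than the gaps between duplicates. Its log2-fold change was 0.11 (SE 0.0286, 95% interval 0.05 to 0.17, adjusted p = 0.00730) under TMM, 0.05 with library size alone (adjusted p = 0.193) and -0.75 with scaling on the NK list. Nfkbia and Tnfaip3, both feedback inhibitors of the classical arm, thus had log2-fold changes of opposite sign under TMM.

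Ratios between members of the same library were computed because scaling between libraries cannot move them. The ratio of Nfkb2 to Nfkb1 counts was 0.297 and 0.299 in wild-type and 0.197 and 0.200 in TNFR2 KO libraries, a difference of -0.59 on the log2 scale where the duplicates differed by at most 0.0201. Nfkbia relative to Tnfaip3 was 0.797 and 0.811 in wild-type and 0.604 and 0.589 in TNFR2 KO libraries, a log2 difference of -0.43 with duplicates at most 0.0382 apart. Relb relative to Rel was 1.20 and 1.27 against 0.972 and 0.944, so Relb had more counts than Rel in both wild-type libraries and fewer in both KO libraries. The ratio of Relb to Nfkb2 was 0.356 and 0.393 against 0.395 and 0.395, a log2 difference of 0.08 that was smaller than the duplicate gap of 0.143. Nfkbie relative to Nfkbia was 0.324 and 0.332 against 0.295 and 0.298. The ratio of Bcl3 to Nfkb1 overlapped between the genotypes, at 0.302 and 0.307 against 0.300 and 0.311. Relative to Rela, the other 9 members were lower in both TNFR2 KO libraries than in either wild-type library, with log2 differences from -0.76 for Nfkb2 and -0.68 for Relb to -0.07 for Tnfaip3, for which the duplicates differed by as much as 0.0778. Rela had the highest log2-fold change of the members, so lower mean ratios to it follow from this choice of reference. Nfkb1, Bcl3 and Tnfaip3 were not lower by themselves under TMM.

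Levels of different genes were compared per length, as CPM per kilobase (kb) of the median coding transcript in GENCODE M21. In wild-type libraries the order was Nfkb1 at 133.3, Nfkbia at 103.9, Bcl3 at 93.7, Tnfaip3 at 84.6, Rela at 70.5, Nfkbib at 52.2, Nfkb2 at 38.1, Nfkbie at 22.4, Relb at 20.3 and Rel at 4.85 CPM per kb. Neighbours in this order did not overlap between duplicates, and the closest were Nfkbie, at 22.2 and 22.7, and Relb, at 19.3 and 21.3 CPM per kb. In TNFR2 KO libraries Nfkbia was in place 4, at 83.2 CPM per kb, behind Bcl3 at 94.1 and Tnfaip3 at 91.3, and the other 7 members kept their places. Bcl3, at 92.2 and 95.9, and Tnfaip3, at 90.2 and 92.3 CPM per kb, overlapped there and so had no settled order. Nfkbia, at 83.3 and 83.1, was above Rela, at 76.7 and 82.9 CPM per kb, by less than the gap between the Rela duplicates. The order depended on the length used, since with the union of exons as the length only Nfkb2, Nfkbie, Relb and Rel, 4 of the 10, kept their wild-type places, and Nfkbia came first, at 101.9 CPM per kb, ahead of Bcl3 at 49.3, Rela at 35.3 and Nfkb1 at 33.2.

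**Figure D3:**
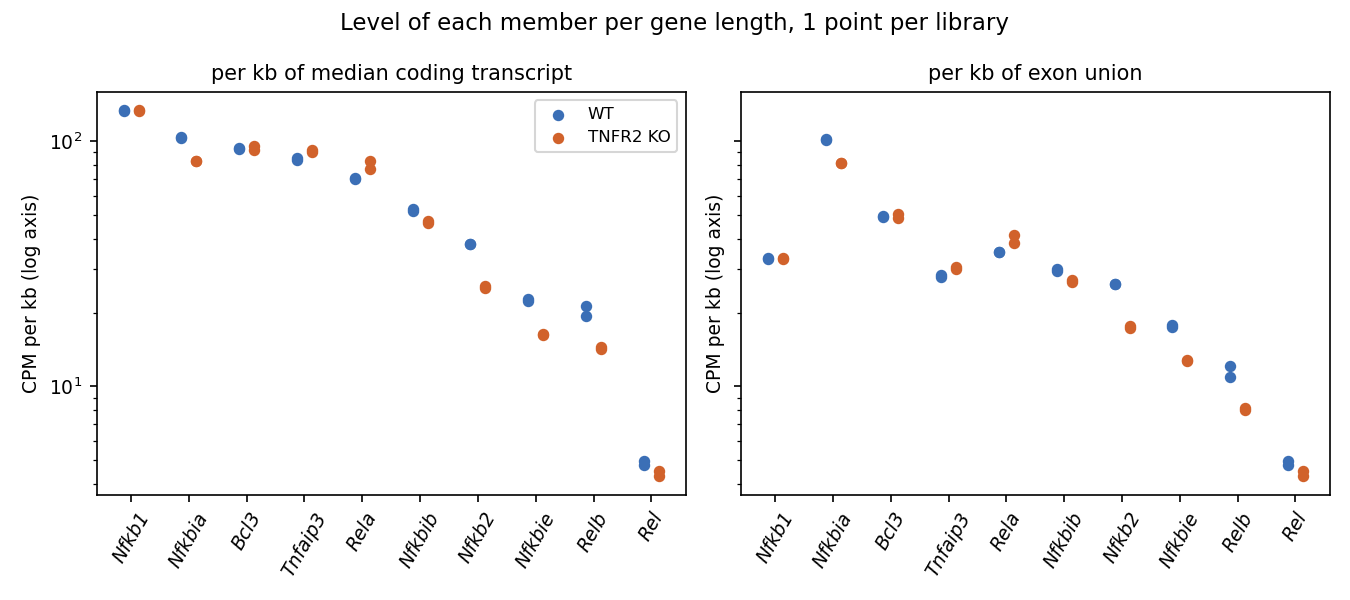
Level of each member as CPM per kb on a log axis, 1 point per library, wild-type in blue and TNFR2 KO in orange, with the median coding transcript (left) or the union of exons (right) as the length. On the left Nfkb1 is highest, near 133.3 CPM per kb in wild-type, and Rel lowest, near 4.85; on the right Nfkbia is highest.

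Summed per length over coding transcripts, the 5 subunits came to 266.7 and 267.5 CPM per kb in wild-type and 253.4 and 261.2 in TNFR2 KO libraries, and the 3 classical IkB genes to 179.3 and 177.9 against 146.1 and 146.7. Subunit transcripts over classical IkB transcripts gave 1.488 and 1.504 in wild-type and 1.735 and 1.781 in TNFR2 KO libraries, with no overlap. With the union of exons the ratio was 0.738 and 0.748 against 0.836 and 0.866, so whether subunits or inhibitors came out more abundant depended on the length, and the higher ratio in TNFR2 KO libraries did not. These are transcript levels, and protein or nuclear localization was not measured.

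Other genes of the pathway, 109 in lists by role with none of the members, gave 105 tested genes, of which 48 were lower, 27 higher and 30 not past the adjusted p value, with a median log2-fold change of -0.04. The shares of all genes tested, to be set beside this count and those of each list, were 26.2% lower and 24.2% higher. Among 14 kinase genes and their adaptors, 2 were lower and 3 higher. Ikbke, which encodes IKK epsilon, went from 132.3 to 80.8 CPM (log2-fold change -0.71, adjusted p = 3.75e-09) and Tank by -0.40, whereas the IkB kinase genes Ikbkb (0.17) and Ikbkg (0.25) and Azi2 (0.22) were higher under TMM and lower under scaling on the NK list, and Tab2 (0.06) did not pass. Of 19 adaptors and ligases, 4 were lower and 11 higher. The lower ones included Tifa, from 19.98 to 2.24 CPM, Birc3 (-0.45), Traf3 (-0.31), which restrains the alternative arm, and Myd88 (-0.20). Prkcq (0.38) and Malt1 (0.29), which act between antigen receptors and the IkB kinases in lymphocytes, were higher under TMM and lower under scaling on the NK list. Of 17 genes of ubiquitin editing and the LUBAC ligase, 3 were lower and 7 higher. Tnip1 (-0.35), Tnip3 (-2.28) and Tax1bp1 (-0.26), which encode partners of A20, were the lower ones, Otulin (0.40), Pdlim2 (0.29), Rnf31 (0.20) and Rbck1 (0.14) were higher under TMM and lower under scaling on the NK list, and Cyld (-0.01) did not pass. Rbck1 also lost its call with library size alone (0.076, edgeR adjusted p = 0.0796). Of 10 other IkB and nuclear regulator genes, 4 were lower, among them Nfkbiz (-0.32), Nfkbil1 (-0.53) and Nkrf (-0.36), whose call was lost without wild-type replicate 1 (edgeR adjusted p = 0.123) and with DESeq2 (adjusted p = 0.0692). Akirin1 (0.20) was higher under TMM and turned under scaling on the NK list, and Cactin (-0.04) did not pass.

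**Figure D4:**
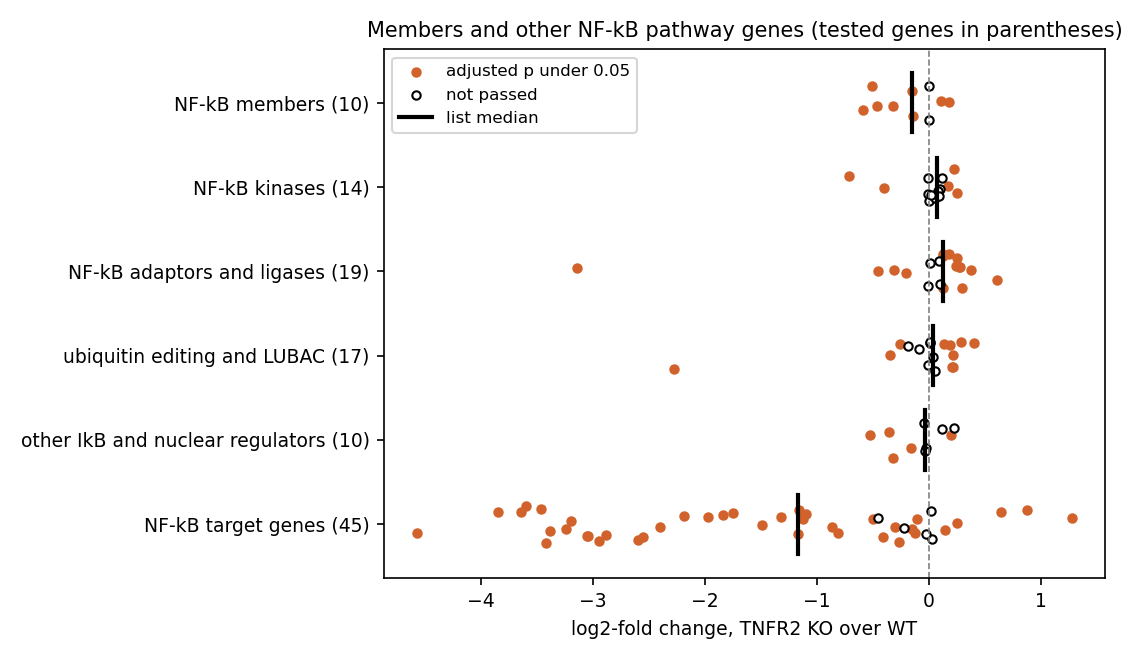
Log2-fold change, TNFR2 KO over wild-type (x axis), of the members and of 5 lists of other NF-kB pathway genes, 1 point per tested gene, filled where the adjusted p value was below 0.05, with a bar at each list's median. Under TMM the members span -0.59 to 0.18, and the target genes span -4.57 to 1.28 with a median of -1.17; with scaling on the NK list all 10 members were lower.

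The members' changes were small beside those of many NF-kB target genes. Of 49 listed targets 45 were tested, 35 were lower and 5 higher, and 26 lower and 1 higher also passed the limit of 1 on the log2-fold change. Among all genes tested, 26.2% were lower and 24.2% higher, and 11.8% lower and 1.56% higher also passed that limit. Cxcl9 (-3.85), Vcam1 (-3.24) and Cxcl10 (-2.94) had the smallest adjusted p values among the lower targets. The higher ones included Ccl5, a chemokine made by NK cells, from 1164 to 2824 CPM (1.28), Ccl4 (0.88), Ccl3 (0.64) and Junb (0.25), the last 2 of which turned lower under scaling on the NK list while Ccl4 lost its call. Summed over the list the targets were higher in TNFR2 KO libraries, at 5762 to 5853 CPM against 4642 to 4702 CPM in wild-type, where the median log2-fold change was -1.17. Ccl5 alone rose by more than this sum did, so the other listed targets together summed lower in TNFR2 KO libraries. By mean level, in bins chosen after the values were seen, 15 of 16 tested targets under 10 CPM were lower, where 31.1% of all genes at that level were, and 15 of 18 between 10 and 100 CPM, where 23.9% of all genes were. Of the 11 targets at 100 CPM or more, the range that holds Rela, Nfkb1, Nfkbia, Tnfaip3 and Bcl3, 5 were lower, 5 higher and 1 did not pass, beside 22% lower and 47.9% higher of all genes at that level.

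Most tested markers of other cell types were lower in TNFR2 KO libraries under TMM, where 26.2% of all genes tested were. Of 16 macrophage or monocyte markers 15 were tested and 14 were lower, with a summed level of 2033 to 2046 CPM in wild-type and 900.6 to 923.8 CPM in TNFR2 KO libraries, and Lyz2 went from 774.6 to 112.2 CPM. Ccr2, from 393.8 to 678.2 CPM, was higher under TMM and lower under scaling on the NK list. It made up most of the summed level in TNFR2 KO libraries, so the other markers of this list fell by more than the sum did. All 14 tested of 15 neutrophil or granulocyte precursor markers were lower (1018 to 1035 against 97.51 to 101.5 CPM), as were all 9 mast cell or basophil markers (1257 to 1261 against 29.59 to 30.74 CPM) and 6 of 10 tested dendritic cell or class II genes (1762 to 1799 against 154 to 155 CPM). Of 8 erythroid markers 8 were lower (263.3 to 269.3 against 53.95 to 56.46 CPM), of 6 megakaryocyte or platelet markers 5 (37.24 to 40.24 against 3.878 to 4.776 CPM) and of 4 tested stromal or endothelial markers 2 (4.799 to 5.344 against 1.217 to 2.146 CPM). Both tested B cell markers of 7 listed were lower (5.168 to 5.262 against 2.778 to 3.231 CPM), as were 6 of 7 T cell markers (933.8 to 939.6 against 778.2 to 787.3 CPM), and Cd3g was higher under TMM by a call that library size alone, a minimum of 10 CPM and leaving out wild-type replicate 2 (edgeR adjusted p = 0.0513) each lost and that turned under scaling on the NK list. No marker was at 0 in all libraries. The part of these cells' RNA in the levels of Nfkb2, Relb, Nfkbie, Nfkbia, the other members and the target genes was not tested.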

How the data were processed

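RNA was measured in 4 bulk libraries, 2 of each genotype. The authors trimmed 100-base paired-end, poly-A, stranded reads with Trimmomatic 1.4, assigned them to mm10 transcripts with kallisto 0.46.1 and summed them per gene with Tximport, and the values deposited are these estimated counts under gene symbols, not scaled between libraries. The transcript annotation and the use of strand in counting are not given in the sources used here. Kallisto splits reads that fit several genes, which can move counts between genes that share sequence.

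Estimated counts were rounded and tested for the 13822 genes kept by edgeR's filterByExpr, with TMM factors and the quasi-likelihood test (edgeR 4.0.16, R 4.3.3), a term for genotype alone and Benjamini-Hochberg adjustment. Thresholds were an adjusted p value below 0.05 and, for the stricter count, an absolute log2-fold change over 1. The steps were tested on simulated data. At 32713256 to 39543650 counts per library, no member had fewer than 1018 counts in any library. The row with a blank gene name, 0.0559% to 0.0728% of counts, was left out. Duplicates differed beyond sampling noise, at a chi-square per gene that averaged 3.27 in wild-type and 3.47 in TNFR2 KO.

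The labels tie same-numbered libraries to the same pool of spleens, so the numbers pair the samples. Across genes, deviations from the group mean correlated at 0.0487 between libraries of the same number. A paired fit with a replicate block called 7088 genes at the adjusted p value, against 6965 without it.

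Members and gene lists were chosen with earlier results of these data known. Other genes named are Tnfrsf1b, the 3 most abundant genes of each pathway list with up to 3 in each direction of smallest adjusted p, and examples from the 2 most abundant of each marker list, except 1 gene that this rule picked and that is not reported here. No genes were named by likeness of pattern, since 4 libraries in 2 groups would rank genes by the contrast itself. Positions and lengths come from GENCODE M21 on GRCm38, which matched 13341 tested genes by symbol, and promoters from RefSeq. Alternatives were other scalings, DESeq2 1.42.0, other filters, the replicate block and each library left out. Plots used matplotlib 3.10.9.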

Additional observations from a re-analysis of the deposited data

Results flagged for a closer look

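The row of the count table that carries no gene name entered no comparison of the members. It held a mean of 0.0722% of the counts in TNFR2 KO libraries, at 0.0716% and 0.0728%, above the 0.0559% and 0.0561% of the wild-type libraries, which serve as the controls here. The row was flagged because it lies outside the measured genes. Its difference between the genotypes is not unusual here, since their libraries did not overlap for 74.0% of all genes tested. What the row holds was not tested.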

How the results depend on the processing

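Over 12 alternatives for each of the 10 members, 102 of 120 values kept their direction and their side of the threshold, 9 lost the call and 9 changed sign. Nfkb2, Relb, Nfkbie and Nfkbia kept both in all 12. With scaling on the NK list, 10 members were lower, 0 higher and 5 past both thresholds, and of the other pathway genes 102 were lower and 1 higher; with library size alone 1 member was higher. Under that NK scaling, which shifts all genes by construction, log2-fold changes turned to -0.68 for Rela, -0.85 for Nfkb1, -0.75 for Tnfaip3, -0.85 for Bcl3, -0.80 for Tab2, -0.63 for Azi2, -0.60 for Ikbkg, -0.69 for Ikbkb, -0.48 for Prkcq, -0.56 for Malt1, -0.72 for Rbck1, -0.46 for Otulin, -0.57 for Pdlim2, -0.65 for Rnf31, -0.66 for Akirin1, -0.61 for Junb, -0.21 for Ccl3, -0.071 for Ccr2, -0.76 for Cd3g, -0.082 for Gp1bb and -0.10 for Gzmb. Library size alone gave -0.060 for Nfkb1, -0.057 for Bcl3 and -0.0037 for Tab2, and a minimum mean of 10 CPM gave -0.035 for Nfkb1 and -0.032 for Bcl3. With each library left out, Bcl3 ran from -0.019 to 0.044 and Cyld from -0.022 to 0.013; the cause was not tested. The paired fit with the replicate block changed no member's call and called 1830 genes past both thresholds, against 1842 without it. Across all genes, calls past both thresholds came to 480 of 8765 genes with the minimum of 10 CPM, which tests fewer genes, and to 4498 with NK scaling, where 12304 genes passed the adjusted p value. With the union of exons as the length, 6 of 10 members kept their place in the order of means over all 4 libraries, and 4 in wild-type libraries.

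Tnip3, Nfkbil1, Nkrf and the lowest markers have no value under the minimum of 10 CPM. With 2 libraries per genotype from 1 experiment, the spread between duplicates does not measure variation between single mice. Genes under 10 CPM rest on the fewest counts.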
